A study of Mus musculus with 68 samples.

Results

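The heat shock and chaperone genes described here are a functional group of 36 genes listed by symbol: 10 of the HSP70 and HSP110 classes, 3 HSP90 genes, 5 chaperonin subunits, 3 small heat shock proteins, 8 DnaJ (HSP40) genes, 5 co-chaperones and the heat shock factors Hsf1 and Hsf2. Of these, 34 had a probeset (a set of array probes for 1 transcript) under their own symbol, out of 18193 genes named on the array. Hsf1 and Hsp90ab1 were not analysed here. Each gene was represented by its probeset of highest mean, chosen among 93 probesets. Of the 34 genes, 33 were tested. Hsf2, a heat shock factor, averaged 3.98 ± 0.17 (SD, n = 37 mice) on the log2 scale and lay above its array's own median in 0 of 68 arrays, so it did not pass the filter on low values.

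The samples were 68 papillomas, benign tumors of the epidermis, raised on the dorsal back skin of 37 FVBBX mice, offspring of SPRET/Ei and FVB/N hybrids crossed back to FVB/N, so that every animal has its own genotype. All mice received the carcinogen DMBA at an age of 8 to 12 weeks and then the tumor promoter TPA for 20 weeks, and no untreated skin is part of the series. The 12 susceptible mice (22 arrays) carried 9 to 35 papillomas at 20 weeks, the 19 intermediate mice (35 arrays) carried 2 to 7, and the 6 resistant mice (11 arrays) carried 0 or 1. By label the 37 mice were 17 agouti and 20 white, 21 female and 16 male. The day of sacrifice was given for 31 mice, 179 to 388 days after the start of treatment, and 23 of them shared it with another mouse, which gave 9 shared days, lettered A to I here. In 31 mice 2 papillomas were profiled and in 6 mice 1, so that the 2 tumors of a mouse share its germline genome, cage, treatment history and sacrifice date. Where n counts mice, the log2 values of the papillomas of a mouse were averaged.

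Molecular chaperones bind unfolded or partly folded proteins and keep them from aggregating until they fold, reach their compartment or are degraded. HSP70 proteins work with DnaJ partners, which deliver clients, and with exchange factors, which release them. HSP90 completes the folding of kinases and hormone receptors, and chaperonins enclose a client in a ring. Heat and other protein-damaging stress induce many of these genes through the heat shock factor HSF1, whereas unfolded protein in the endoplasmic reticulum (ER) induces the ER chaperones through its own sensors. In epidermis some of them, HSPB1 above all, are also made during keratinocyte differentiation.

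The arrays were comparable in scale, with medians between 5.18 and 5.29. The 3' over 5' log2 ratio of Actb, a measure of RNA integrity, ranged over arrays between -0.27 and 2.13. Over mouse means 0 of the 33 members correlated with it past the threshold, where 0.0464% of all probesets did with a negative r. Unadjusted, 6 members had a permutation p under 0.05. This unadjusted count has no count over all probesets beside it and is not read as a result. The members had a median r of -0.15 with the ratio, against 0.0027 over all probesets. Keratinocyte markers had a mean log2 level between 11.0 and 12.6 in every mouse (9 genes), which fits the labelled tissue, beside fibroblast, leukocyte and muscle genes in varying amount. In 6 mice (8 arrays) the levels of Xist and the Y-linked gene Eif2s3y went against the sex label. These were mice 12, 13, 15, 21, 24 and 35, and in some of them only 1 of the 2 papillomas did so. 4 mice stood apart, with more than 5% of the 21561 tested probesets more than 2.5 SD from the mean of the 37 mice. Mouse 36 (susceptible, 1 papilloma, sacrificed at 388 days) had 17.0% and was the lowest mouse in 14 of the 34 members. Mouse 31 (susceptible, 1 papilloma) had 7.78%, mouse 37 (resistant, 2 papillomas) 7.28% and mouse 3 (intermediate, 2 papillomas) 6.53%. Mouse 36 also had the lowest mean of 9 mitosis genes and of 9 other mitochondrial chaperones, and its muscle markers ranked 3 of 37. In bulk tumors, fewer cells of a type and less RNA per cell cannot be told apart.

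Most members were expressed well above the array median. All but 1 of the 33 lay above it in all 68 arrays. The exception was Hspa2, an HSP70 best known from the testis, which did so in 66. Among the HSP70 genes, the constitutive cytosolic Hspa8 had 13.02 ± 0.14 and varied little, with mice between 12.79 and 13.50. Hspa5, the main HSP70 of the ER, had 12.85 ± 0.28. The mitochondrial Hspa9 had 10.57 ± 0.28, the ribosome-associated Hspa14 8.84 ± 0.16, and Hspa2 6.33 ± 0.52. Stress-inducible Hspa1b averaged 12.27 ± 0.35, and its near-identical neighbour Hspa1a averaged 8.58 ± 0.53 (all SD, n = 37 mice). The values of this last pair, which correlated at r = 0.92 over mice, are uncertain, since probes for one copy may also bind RNA of the other, which was not tested.

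The HSP110 genes encode exchange factors of HSP70. Hsph1 ranged over mice between 6.60 and 9.62 with a median of 8.76, a range of 3.02 on the log2 scale. Its relatives were steadier, with 11.08 ± 0.17 for Hspa4 and 8.46 ± 0.35 for Hspa4l. The small heat shock protein Cryab, or alpha-B crystallin, had the widest range of all 33 members at 3.19, with a lowest mouse of 6.53, a median of 8.45 and a highest mouse of 9.72. Hspb1 had 12.84 ± 0.39 and Hspb8, a partner of Bag3, 8.02 ± 0.31. At the other end, the cytosolic DnaJ gene Dnaja2 spanned 0.52 among all 37 mice, at a mean of 11.84.

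The remaining members lay between these extremes in spread. Hsp90aa1, the inducible cytosolic HSP90, had 11.85 ± 0.27, and Hsp90b1 (GRP94), the HSP90 of the ER, 11.45 ± 0.29. The mitochondrial chaperonin Hspd1 (HSP60) had 11.67 ± 0.25 and its lid Hspe1 (HSP10) 11.37 ± 0.29. The cytosolic chaperonin subunits had 11.88 ± 0.27 for Cct2, 11.52 ± 0.21 for Cct3 and 11.80 ± 0.15 for Cct5. Of the other DnaJ genes, the cytosolic ones stood at 10.74 ± 0.29 (Dnaja1), 10.16 ± 0.22 (Dnajb1), 9.18 ± 0.30 (Dnajb4), 11.00 ± 0.25 (Dnajb6) and 9.95 ± 0.16 (Dnajc7), and the ER proteins at 9.95 ± 0.34 (Dnajb9) and 9.74 ± 0.23 (Dnajc3). The co-chaperones stood at 9.69 ± 0.29 for Bag3, an exchange factor tied to selective autophagy, 8.73 ± 0.32 for Stip1, which bridges HSP70 and HSP90, 9.67 ± 0.19 for Ahsa1, which stimulates the ATPase of HSP90, 9.88 ± 0.23 for Chordc1, which binds HSP90, and 9.62 ± 0.27 for the HSP70-binding St13. Where a second tested probeset existed (24 genes), it correlated with the first at a median r of 0.87, and 18 exceeded 0.5. Some genes were exceptions. St13 had r = -0.23 and -0.35, Hspa4 -0.23, 0.03 and 0.24, Hspa14 0.22 and 0.17, and Dnajc3 between -0.07 and 0.41 for its 4 further probesets. The direction of the values of these 4 genes below rests on 1 probeset and is not settled. Agreement was also limited for Ahsa1, whose other probeset had r = 0.39 at a mean level of 5.20, and for Hspa8 (0.45, 0.52 and -0.17). For Hspa5 the further probesets had r = 0.93 and 0.02.

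The promoters of some members hold the sites by which the heat shock and ER stress responses are known to act, and 7 are shown because the comparisons below turn on these genes. Sequences are RefSeq's for GRCm38.p6, 170 bases before the annotated start and 30 from it on, written in the direction of transcription. Capitals mark the motif letters. The first motif is a pair of inverted heat shock units, GAANNTTC or TTCNNGAA, which read the same on both strands and overlap one another in longer arrays. Hsph1 (chr5:149636286-149636485, minus strand), Chordc1 (chr9:18292097-18292296, plus strand), Hspa1a (chr17:34972127-34972326, minus strand), Hspb1 (chr5:135887749-135887948, plus strand) and Hspe1 (chr1:55087978-55088177, plus strand) hold it.
Hsph1: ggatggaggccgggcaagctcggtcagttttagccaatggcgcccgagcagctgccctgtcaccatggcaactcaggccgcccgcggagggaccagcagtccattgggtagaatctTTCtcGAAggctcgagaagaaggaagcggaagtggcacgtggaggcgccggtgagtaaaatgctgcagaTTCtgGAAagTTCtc
Chordc1: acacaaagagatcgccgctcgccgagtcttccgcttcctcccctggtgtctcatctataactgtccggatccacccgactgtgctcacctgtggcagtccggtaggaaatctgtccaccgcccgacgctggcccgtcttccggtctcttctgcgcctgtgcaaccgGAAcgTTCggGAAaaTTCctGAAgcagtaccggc
Hspa1a: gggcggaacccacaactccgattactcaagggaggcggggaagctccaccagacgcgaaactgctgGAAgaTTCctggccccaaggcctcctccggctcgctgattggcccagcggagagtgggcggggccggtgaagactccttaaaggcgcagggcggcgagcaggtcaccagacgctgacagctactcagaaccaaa
Hspb1: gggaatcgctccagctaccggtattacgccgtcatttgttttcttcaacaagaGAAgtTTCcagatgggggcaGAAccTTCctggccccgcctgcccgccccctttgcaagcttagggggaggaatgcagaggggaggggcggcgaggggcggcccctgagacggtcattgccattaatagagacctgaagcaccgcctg
Hspe1: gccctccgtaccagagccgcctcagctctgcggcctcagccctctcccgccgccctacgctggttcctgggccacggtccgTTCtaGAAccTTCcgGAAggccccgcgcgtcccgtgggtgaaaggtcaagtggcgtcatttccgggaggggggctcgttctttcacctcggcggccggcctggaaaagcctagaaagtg

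In Chordc1 and Hspe1 the units follow each other without a gap, with 4 and 3 overlapping matches in the printed bases. The Hspe1 sequence is also the head-to-head promoter of Hspd1 on the opposite strand, since for 1 of the 2 annotated Hspd1 starts the windows share 285 of 300 bases. Over the 300-base windows (250 before and 50 after the start) 14 of the 29 member genes with a promoter entry held at least 1 such pair, or 48.3%, against 17.0% of 27025 genes. A match is a description of the letters and no evidence that the factor bound there in these tumors.

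The second motif is the ER stress element, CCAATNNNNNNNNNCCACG, searched on both strands. It was found in 3 of the 29 member genes (10.3%), Hspa5, Hsp90b1 and Dnajc3, against 0.137% of all 27025 genes. The windows of Hspa5 (chr2:34771920-34772119, plus strand) and Hsp90b1 (chr10:86705415-86705614, minus strand) show the element in capitals, in Hsp90b1 as its reverse complement.
Hspa5: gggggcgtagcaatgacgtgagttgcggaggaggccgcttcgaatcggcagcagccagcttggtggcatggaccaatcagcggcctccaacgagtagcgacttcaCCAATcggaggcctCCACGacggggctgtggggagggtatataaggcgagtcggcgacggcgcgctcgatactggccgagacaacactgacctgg
Hsp90b1: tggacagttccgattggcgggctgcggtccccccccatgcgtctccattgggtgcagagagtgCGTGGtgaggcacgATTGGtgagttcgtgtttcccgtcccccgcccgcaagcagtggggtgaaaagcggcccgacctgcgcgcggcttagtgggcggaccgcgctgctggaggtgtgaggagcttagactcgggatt

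The first comparison asked whether 2 papillomas of a mouse resemble each other in chaperone levels, as they do across the array. The study's authors caution that sequence variants of a parental strain can in principle interfere with probe hybridization. Both tumors of a mouse would share such an effect, and its part in their likeness was not tested. The intraclass correlation (ICC), the share of variance that lies between mice, passed the threshold in 31 of the 33 members (F test over 31 mice with 2 papillomas, Benjamini-Hochberg adjusted over 21561 probesets). That threshold was also passed by 71.0% of all tested probesets, so the count alone says little about chaperones. Their median ICC was 0.576, against 0.435 over all tested probesets. The 2 sets were not matched for level: most members lay well above the array median. Without the filter on low values the median over all probesets was 0.335. The part of level in the gap was not tested. The median difference between 2 papillomas of a mouse was 0.155 on the log2 scale, against 0.250 for papillomas of different mice, and all 33 members were closer within a mouse than between mice, as were 20269 of the 21561 probesets.

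By role, the chaperonins had the highest median ICC among groups of more than 2 genes at 0.632, with all 5 past the threshold. The HSP70 and HSP110 genes had 0.583 (9 of 10), the co-chaperones 0.531 (5 of 5), the small heat shock proteins 0.507 (3 of 3) and the DnaJ genes 0.506 (7 of 8). Other chaperones, listed for comparison, had 0.535 for 22 genes of ER folding (21 past the threshold), 0.488 for 35 further cytosolic chaperones (25) and 0.423 for 9 mitochondrial ones (8). Mitosis genes, with a median of 0.231 and 2 of 9 past the threshold, and muscle genes, with 0.232 and 1 of 8, were less alike within a mouse.

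**Figure D1:**
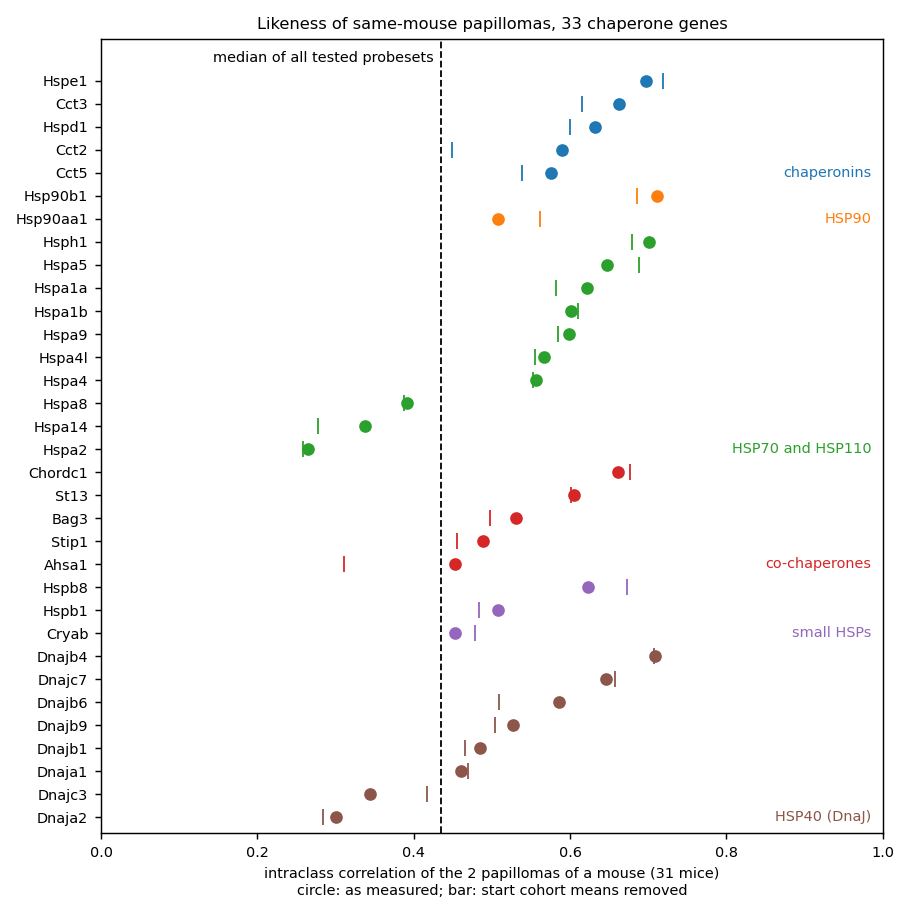
Intraclass correlation of the 2 papillomas of a mouse for the 33 tested chaperone genes, ordered by role, over 31 mice (horizontal axis, no unit). Circles give the value as measured, bars the value after start cohort means were removed, and the dashed line the median of all tested probesets at 0.435. After the removal 29 members pass the threshold.

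The 4 members of highest ICC came from 4 different classes. Hsp90b1 (ICC 0.711, adjusted p = 2.97e-05) had mouse means between 10.84 and 12.00 with a median of 11.50, and its papillomas differed by a median of 0.14 within a mouse, against 0.31 between mice. In the lowest mouse for this gene, mouse 13, the 2 tumors had 10.75 and 10.93. Dnajb4, a cytosolic DnaJ gene (ICC 0.708, adjusted p = 3.29e-05), differed by 0.18 within and 0.34 between mice.

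Hsph1 (ICC 0.701, adjusted p = 4.26e-05) differed by 0.32 within a mouse, against 0.65 between mice. Both papillomas of mouse 3 were low, at 6.69 and 6.50, and so were both of mouse 20, at 7.18 and 7.14. The 2 tumors of mouse 15, a mouse of doubtful sex label, lay farthest apart, at 8.32 and 9.72. Hspe1 (ICC 0.696, adjusted p = 4.87e-05) differed by 0.18 within a mouse, against 0.31 between mice, and 25 of the 31 pairs were closer than the median of different mice, the same number as for Hsp90b1 and Hsph1.

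At the lower end, Hspa2 (ICC 0.265, adjusted p = 0.0872) and Dnaja2 (ICC 0.300, adjusted p = 0.0616) missed the threshold. Hspa2 differed by a median of 0.43 within a mouse, against 0.61 between mice, and the 2 papillomas of mouse 25 had 5.12 and 6.97. For Dnaja2 the spread was small throughout, with 0.05 within a mouse and 0.09 between mice. Hspa14 (ICC 0.337, adjusted p = 0.0413) and Dnajc3, an ER co-chaperone (ICC 0.344, adjusted p = 0.0383), passed narrowly. In mouse 37, one of the mice that stood apart, a single papilloma was low in both Dnaja2 (11.22 and 11.76) and Hspa14 (7.93 and 8.76). Cryab passed (ICC 0.453, adjusted p = 0.00919) in spite of the largest gap in any member, 2.53 in mouse 15, whose papillomas had 5.27 and 7.79. The sex label of mouse 15 is doubtful.

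**Figure D2:**
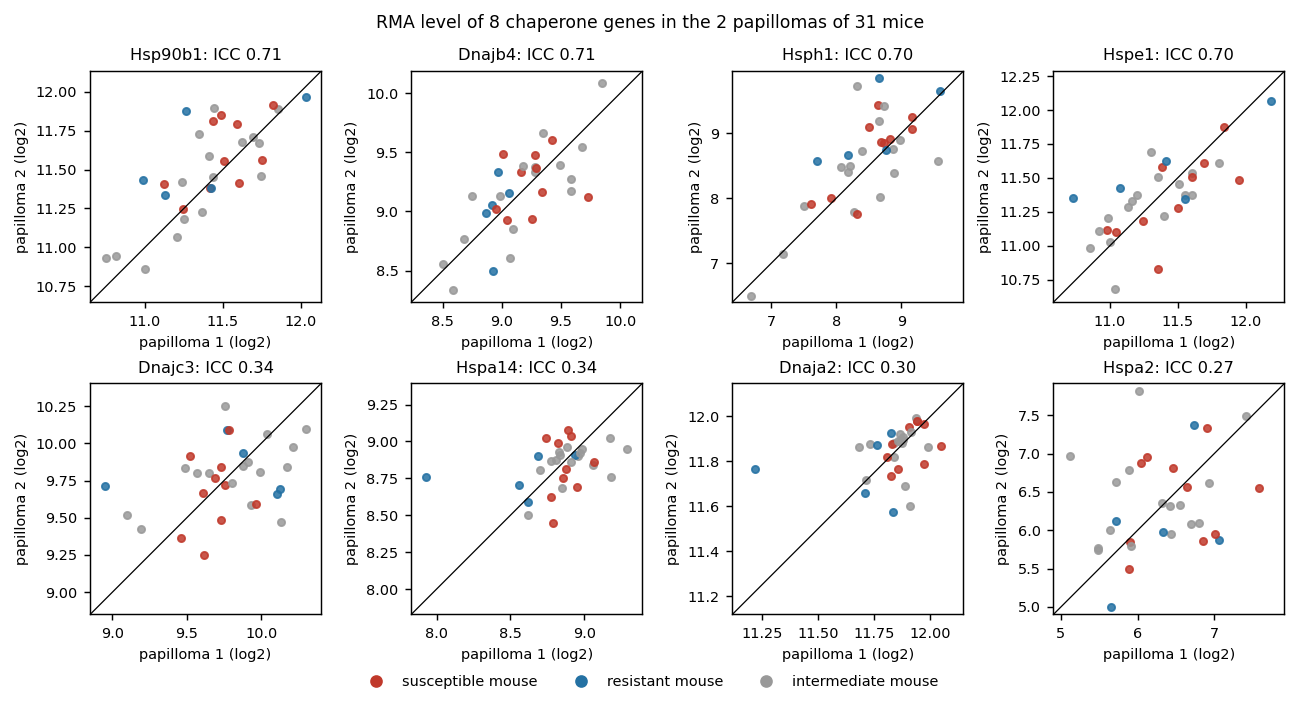
RMA levels (log2) of the first papilloma (horizontal axis) and the second papilloma (vertical axis) of each of 31 mice for the 4 members of highest and the 4 of lowest intraclass correlation (ICC). Points are mice, colored by class, and the line marks equal levels. In Hsph1 the 2 lowest mice are low in both tumors, at 6.69 and 6.50 and at 7.18 and 7.14, and in Hspa2 the points scatter on both sides of the line.

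The likeness within mice was also computed with other labels taken into account. With start cohort means removed 29 members passed, against 66.2% of all probesets, and without the 4 mice that stood apart 27 did (median ICC 0.512), against 59.4%. With the 3' over 5' control ratios removed 30 did (median ICC 0.531), against 64.4%. Without the mice of doubtful sex label 27 members passed over 27 mice (median ICC 0.573), against 58.2%. Hspb1 was then the lowest member at 0.18, where it had 0.507 over 31 mice. Whether the 2 papillomas of those mice are truly from 1 animal was not tested. Within the 10 susceptible mice 5 passed (median 0.518), against 14.2% of all probesets, and within the 16 intermediate mice 23 (0.578), against 52.4%. Within the 5 resistant mice 0 of 33 passed by the F test (0.495), where 0.00928% of all probesets did. There 8 members had an unadjusted p under 0.05, as had 3349 of the 21561 probesets. In the 15 mice with 2 papillomas that shared a sacrifice day, 5 passed (median 0.426), against 21.6% of all probesets, and 3 after the means of the days were removed (0.400), against 16.4%. These last alternatives hold fewer mice. Hspa5, at 0.648 over 31 mice, had the lowest ICC of all members in the 15 mice with a shared day, 0.0091, and -0.15 with day means removed, where Dnajc7 was the lowest at -0.33.

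The second comparison asked whether chaperone genes vary together over the 37 mice. Among the 528 pairs of members the median Pearson r was 0.10, against 0.0034 over all probesets. There were 66 pairs above 0.5, or 12.5%, against 3.93% over all probesets, and 12 pairs below -0.5, or 2.27%, against 2.81%. Without mouse 36 there were 49 pairs above 0.5, or 9.28%, and without the 4 mice that stood apart 39, or 7.39%, against 3.52% over all probesets. Most pairs of chaperone genes thus showed little relation.

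**Figure D3:**
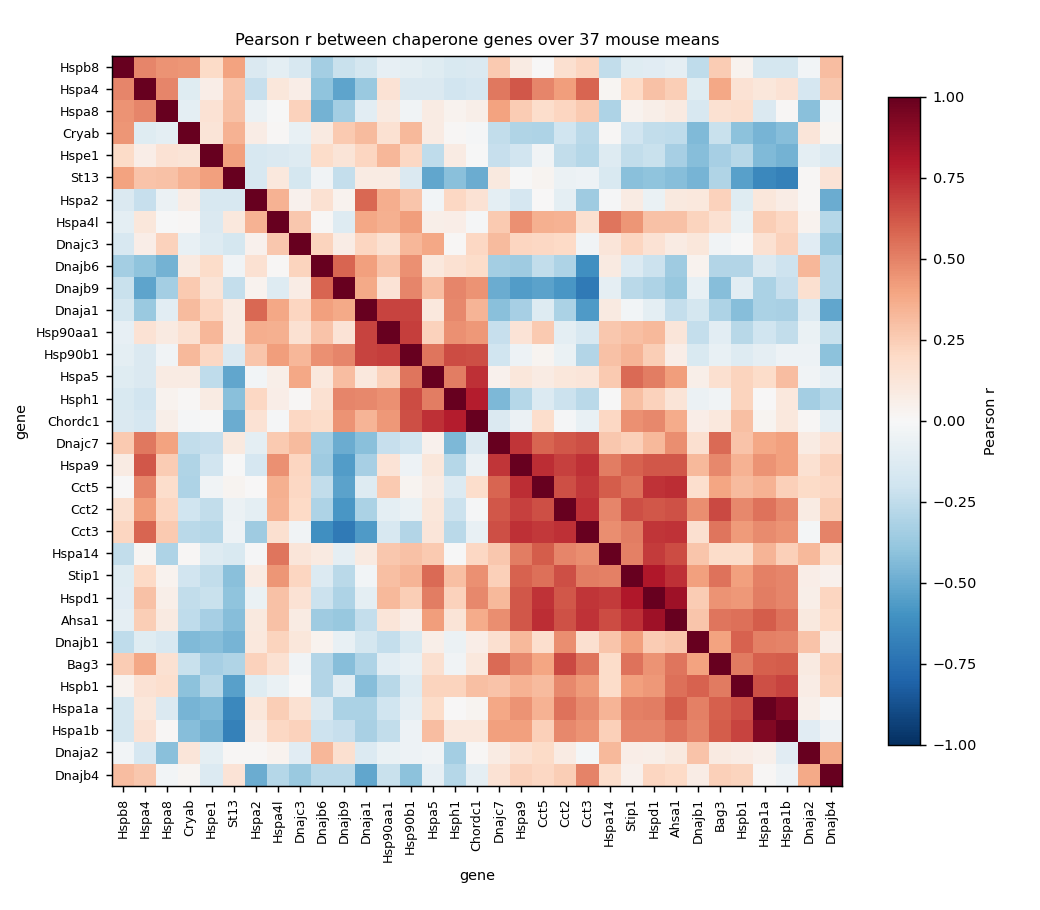
Pearson r over 37 mouse means between each pair of the 33 tested chaperone genes, on a scale of -1 (blue) to 1 (red), with genes ordered by similarity. A block of the chaperonin subunits Cct2, Cct3, Cct5 and Hspd1, without Hspe1, holds also Hspa9, Stip1 and Ahsa1. It and a smaller block of Hsph1, Chordc1, Hspa5, Hsp90b1, Hsp90aa1 and Dnaja1 stand out, and 66 of the 528 pairs exceed 0.5.

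The pairs above 0.5 were unevenly spread over the roles. Chaperonin subunits reached a median r of 0.63 among themselves (6 of 10 pairs above 0.5) and 0.41 with the co-chaperones (10 of 25 pairs). The 6 pairs lay among Hspd1, Cct2, Cct3 and Cct5, whereas Hspe1 had negative values with each of these, between -0.29 and -0.03. The pair of HSP90 genes, cytosolic Hsp90aa1 and ER Hsp90b1, had r = 0.69, and both went with Dnaja1, at r = 0.68 and 0.67. DnaJ genes had a median of 0.08 among themselves and HSP70 genes one of 0.11, so belonging to a class did not by itself go with a shared level. The lowest pair was Cct3 with the ER protein Dnajb9 (r = -0.70). It was followed by St13 with Hspa1b (-0.68) and Hspa1a (-0.65), and by Cct3 with Dnajb6 (-0.62).

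To test single relations, 5 genes that stand for different compartments were each correlated with all tested probesets over 37 mouse means. The genes were Hsph1 (cytosol, stress-inducible), Hspa5 (ER), Hspd1 (mitochondria), Cct2 (cytosolic chaperonin) and Hspb1 (small heat shock protein). Each p-value is two-sided from 100000 permutations of the mice, of which 1e-05 is the smallest possible, and was adjusted by Benjamini-Hochberg over about 21560 probesets per gene. Values within the 3 start cohorts of 6 or more mice (cohorts 1, 2 and 6, with 6, 8 and 9 mice) are given in that order.

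Hsph1 varied over mice with a few chaperones of the cytosol and the ER. 4 of 32 other members passed with a positive r, against 3.20% of all probesets. The highest was Chordc1 (r = 0.78, permutation p = 1e-05, adjusted p = 0.00111; rho = 0.61, permutation p = 8e-05), with 0.78, 0.88 and 0.77 in the cohorts. Both genes were lowest in mouse 3 (6.60 for Hsph1, 9.02 for Chordc1), and without mice 3 and 20, the farthest from the median of Hsph1, r was 0.60. Hsp90b1 followed (r = 0.65, permutation p = 2e-05, adjusted p = 0.00176; rho = 0.65, permutation p = 4e-05), with 0.88, 0.88 and 0.41 in the cohorts and 0.59 without those 2 mice.

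Hspa5 was the third (r = 0.51, permutation p = 0.00198, adjusted p = 0.0345), but this relation rested on mice 3 and 20: without them r was 0.11, rho over all mice was 0.30 (permutation p = 0.0764), and the cohorts gave -0.46, 0.65 and 0.76. Without the 4 mice that stood apart Chordc1 and Hsp90b1 still passed, and Stip1 did so in addition, against 1.37% of all probesets with a positive r. Dnaja1 also passed (r = 0.48, permutation p = 0.00242, adjusted p = 0.0386; rho = 0.55, permutation p = 0.00056; 0.50 without the 2 mice). The lowest values were -0.42 for St13 (adjusted p = 0.0925) and -0.45 for Dnajc7 (adjusted p = 0.0714), neither past the threshold. In 22 further genes of ER folding 8 passed with Hsph1 (median r = 0.40), led by the disulfide isomerase Pdia4 at r = 0.67, and 3 without the 4 mice that stood apart.

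For Hspa5, 5 of 32 members passed with a positive r (2.75% of all probesets) and 1 with a negative r (2.95% of all probesets). Chordc1 was again the highest (r = 0.73, permutation p = 1e-05, adjusted p = 0.00399; rho = 0.55, permutation p = 0.00058; r = 0.55 without mice 20 and 3), but the cohorts gave -0.25, 0.91 and 0.87. Stip1 had r = 0.57 (permutation p = 0.00118, adjusted p = 0.0314; rho = 0.57, permutation p = 0.00038; 0.61 without those mice). Hsp90b1, the other ER chaperone with the element shown above, had r = 0.54 (permutation p = 0.00054, adjusted p = 0.0217; rho = 0.48, permutation p = 0.00277; 0.44 without those mice), with -0.32, 0.68 and 0.53 in the cohorts. Between the papillomas of a mouse its r with Hspa5 was -0.06.

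The lowest members were Hspe1 (r = -0.25, adjusted p = 0.362) and St13 (r = -0.52, permutation p = 0.00092, adjusted p = 0.0276), whose probesets disagree. Without the 4 mice that stood apart, 1 of the 5 positive members, Chordc1, remained past the threshold for Hspa5, against 0.223% of all probesets with a positive r. Of the 22 further ER genes 8 passed with Hspa5 (median r = 0.38), led by Manf, a secreted stress factor, at r = 0.76 and by Dnajb11, a DnaJ partner of HSPA5, at r = 0.74, and 4 passed without the 4 mice.

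Hspd1 had more partners among the members, but also across the array. 13 of 32 members passed with a positive r, against 15.9% of all probesets. Ahsa1 (r = 0.85, permutation p = 1e-05, adjusted p = 0.000404; rho = 0.81, permutation p = 1e-05) had 0.73, 0.89 and 0.69 in the cohorts and 0.77 without mice 36 and 30. Its other, weaker probeset followed the first at r = 0.39. Stip1 (r = 0.80, adjusted p = 0.000404; rho = 0.71, both permutation p = 1e-05) had 0.86, 0.98 and 0.60 in the cohorts and 0.70 without those mice. Cct5 (r = 0.73, adjusted p = 0.000404; rho = 0.66, both permutation p = 1e-05) had 0.30, 0.87 and 0.07 in the cohorts and 0.60 without those mice.

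The other members that passed were Cct3, Hspa14, Cct2, Hspa9, Hspa5, Hspa1a, Hspa1b, Chordc1, Bag3 and Hspb1, with r between 0.43 and 0.71. Without mouse 36, which had the lowest level of Hspd1 (10.91), Ahsa1 (9.06) and Stip1 (7.41), 6 members passed, against 8.18% of all probesets, and without the 4 mice 7 did, against 5.52%, namely Ahsa1, Stip1, Cct2, Cct3, Cct5, Hspa14 and Chordc1. The lowest members were Dnajb9 (r = -0.30, adjusted p = 0.162) and St13 (r = -0.40, adjusted p = 0.0525). Mitosis genes moved with Hspd1 too: 7 of 9 passed (median r = 0.67), led by Aurkb at 0.80, and 6 of 9 without the 4 mice. Muscle markers moved the other way, with 4 of 8 past the threshold (median r = -0.43) and 0 without the 4 mice. The part of these cell types and of proliferation in the relations of Hspd1 was not tested.

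For Cct2, 14 of 32 members passed with a positive r, against 16.0% of all probesets, and 1 with a negative r, against 9.94%. Cct3, a subunit of the same ring, had r = 0.73 (permutation p = 1e-05, adjusted p = 0.000623; rho = 0.61, permutation p = 6e-05; 0.60 without mice 36 and 31), with 0.66, 0.91 and 0.28 in the cohorts. Hspa9 had r = 0.68 (permutation p = 2e-05, adjusted p = 0.000871; rho = 0.51, permutation p = 0.0014; 0.49 without those mice), and Bag3 r = 0.66 (permutation p = 6e-05, adjusted p = 0.00154; rho = 0.48, permutation p = 0.00286; 0.38 without those mice). The negative member was Dnajb9 (r = -0.58, permutation p = 0.00045, adjusted p = 0.00529; rho = -0.33, permutation p = 0.0462), and Dnaja1 had r = -0.32 (adjusted p = 0.14). These calls were lost without the mice that stood apart. Without mouse 36, 8 members passed with a positive r, against 6.74% of all probesets. Without the 4 mice 0 passed, while 0.325% of all probesets did, with r = 0.55 for Cct3 and 0.40 for Hspa9. There 8 members had an unadjusted permutation p under 0.05, with no count over all probesets beside it.

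Hspb1 went with the inducible HSP70 genes. 9 of 32 members passed with a positive r, against 14.5% of all probesets, and 3 with a negative r, against 15.5%. Hspa1b had r = 0.67 (permutation p = 1e-05, adjusted p = 0.000636; rho = 0.59, permutation p = 0.00016; 0.59 without mice 15 and 31), with 0.63, 0.73 and 0.46 in the cohorts, and its near-identical copy Hspa1a 0.65. Dnajb1, the DnaJ gene best known from the heat shock response, had r = 0.59 (permutation p = 0.00015, adjusted p = 0.00231; rho = 0.55, permutation p = 0.0005; 0.42 without those mice), but 0.13 in cohort 6.

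The negative members were Cryab (r = -0.41, adjusted p = 0.0426), Dnaja1 (r = -0.43, adjusted p = 0.0334) and St13 (r = -0.54, adjusted p = 0.00471). The call of Cryab, like Hspb1 a small heat shock protein, was lost with Spearman's rho, without the filter on low values and with start cohort means removed. It was also lost with the control ratios removed, without mice of doubtful sex label and without mouse 36. Without the 4 mice Cryab had r = -0.30, not past the threshold. Of 9 leukocyte markers, 5 were negative with Hspb1 (median r = -0.47, led by Ptprc at -0.62), and 5 again without the 4 mice. Of 9 keratinocyte markers 5 were positive (1 without the 4 mice), and of 8 muscle markers 5 were negative (0 without them). Without the 4 mice 3 members passed with a positive r, Hspa1a, Hspa1b and Dnajb1, against 6.45% of all probesets. The part of these cells in the values of Hspb1 was not tested.

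**Figure D4:**
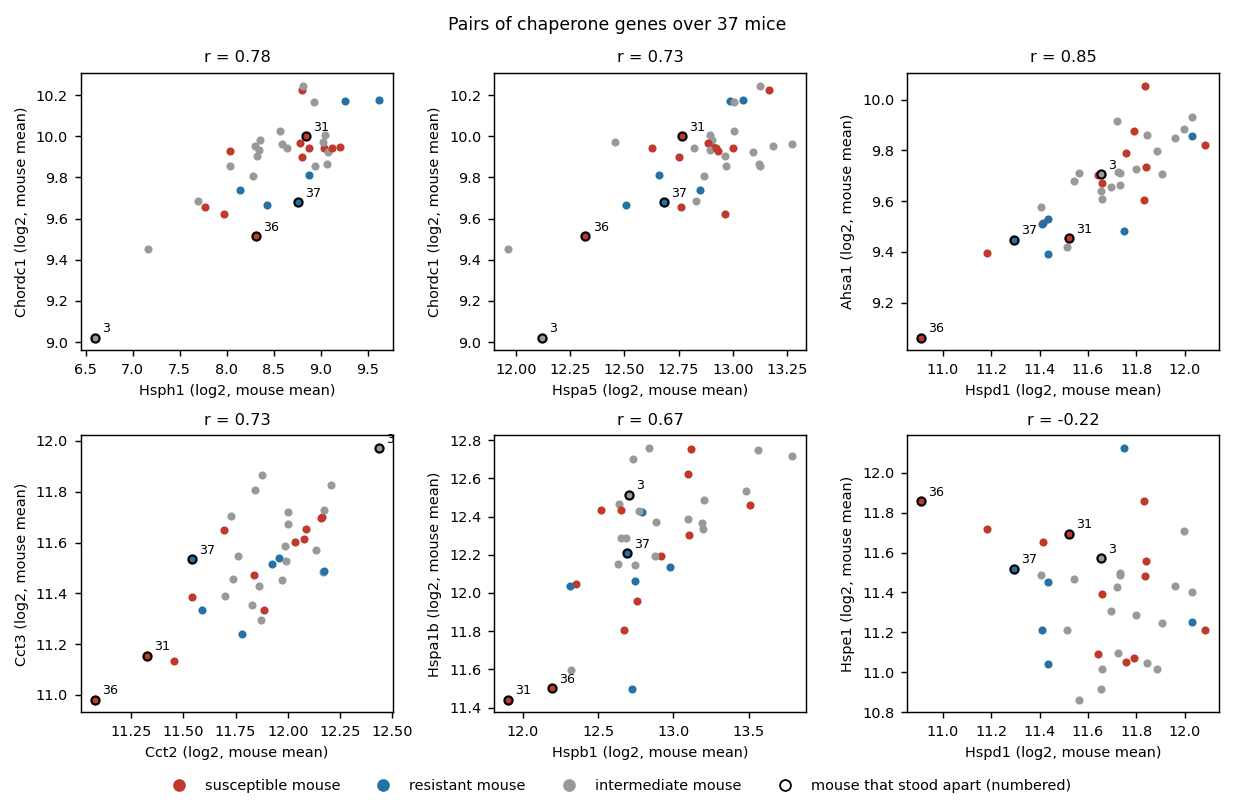
Mouse means (log2) of pairs of chaperone genes over 37 mice, colored by class, with Pearson r above each panel and the 4 mice that stood apart ringed and numbered. Mouse 3 is lowest in Hsph1 and Chordc1, mouse 36 is lowest in Hspd1, Ahsa1, Cct2 and Cct3, and Hspd1 and Hspe1 show r = -0.22.

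The same relations were then read within mice, as correlations of the difference between the 2 papillomas over 31 mice, an alternative chosen after the data had been seen. Mice 31 and 36, with 1 papilloma each, do not enter it. For Hspd1, 9 of 32 members passed with a positive r, against 2.86% of all probesets: Hspa9 (0.73), Ahsa1 (0.69), Stip1 (0.69), Cct3 (0.68), Hspa14 (0.66), Hspe1 (0.63), Cct2 (0.62), Hsph1 (0.60) and Cct5 (0.57). For Cct2, 9 passed against 6.18%, led by Stip1 (r = 0.73, permutation p = 1e-05, adjusted p = 0.0024; rho = 0.74). They included Hspa4 (0.62), whose probesets disagree, and Hspa8 (0.57), which carries cytosolic clients and whose probesets agree only in part. With Hspd1 and with Cct2 all 9 mitosis genes listed passed as well, with a median r of 0.64 for Hspd1 and 0.57 for Cct2. The papilloma with more Hspd1 was also the one with more Cct2 in 25 of 31 mice.

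Hspd1 and Hspe1 differed between the readings. Their products form 1 mitochondrial machine from 1 shared promoter region, shown above for Hspe1. Over mouse means they had r = -0.22 (permutation p = 0.189, adjusted p = 0.333; rho = -0.15; -0.0023 without mice 36 and 30), with -0.07, -0.16 and 0.09 in the cohorts. Between the papillomas of a mouse they had r = 0.63 (permutation p = 0.00015, adjusted p = 0.0172; rho = 0.61, permutation p = 0.00027; 0.58 without mice 22 and 25), and moved in the same direction in 23 of 31 mice. In mouse 22, for example, Hspd1 had 11.84 and 11.28 and Hspe1 11.04 and 10.68. A second probeset of Hspe1 followed the first at r = 0.96. The difference between both readings was not tested.

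For Hspa5 the within-mouse reading gave 1 positive member, against 3.07% of all probesets, and 2 negative, against 5.70%. The positive one was Dnajb9, an ER DnaJ protein that binds HSPA5 (r = 0.63, permutation p = 0.00013, adjusted p = 0.0171; rho = 0.73, permutation p = 1e-05; 0.57 without mice 10 and 28), which had r = 0.31 over mouse means. The negative ones were Hspa2 (r = -0.65, adjusted p = 0.016; rho = -0.63) and St13 (r = -0.55, adjusted p = 0.0331). Hspa2 was the 1 negative member for Hspd1 also (r = -0.56, adjusted p = 0.0416), against 0.561% of all probesets, but r was -0.27 without mice 22 and 25. Fibroblast genes moved against Hspa5 within mice as well, with 3 of 7 past the threshold.

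For Hsph1 no member passed within mice by the permutation test, against 0.0928% of all probesets with a positive r, and 12 had an unadjusted p under 0.05, all with a positive r. For Hspb1 none passed either, against 0.663% of all probesets, and 4 had an unadjusted p under 0.05 with a positive and 6 with a negative r. These unadjusted counts have no count over all probesets beside them and are not read as results. The leading partners of Hsph1 and Hspb1 kept their sign. Chordc1 had r = 0.49 and Hsp90b1 r = 0.58 with Hsph1, and Hspa1b had r = 0.47 with Hspb1, none past the threshold.

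The third comparison concerned the sacrifice date. Mice killed on a shared day were set against each other by limma's moderated F over 9 days and 23 mice. No member passed (0 of 33, with 0% of all probesets called), and 0 members had an unadjusted p under 0.05, against 3.89% of all probesets. With 2000 permutations of the mice over the days, 0 members and 0 probesets passed. By that test 0 members had an unadjusted p under 0.05, against 3.70% of all probesets. The share of variance between days had a median of 0.336 in the members, against 0.348 in all probesets and 0.364 for days without any effect.

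Hsp90aa1 had the smallest p (F = 2.18, p = 0.0842, adjusted p = 1.00), with a mean of 12.33 on day A, 12.20 on day B, 11.53 on day C, 11.92 on day D, 11.85 on day E, 11.67 on day F, 11.86 on day G, 11.77 on day H and 11.93 on day I. The 2 mice of day A and the 2 of day F differed by 0.0085 and 0.0022, but the 6 of day H by 0.81. Hspe1 (F = 2.01), Dnaja1 (F = 1.73), Dnajb6 (F = 1.56) and St13 (F = 1.52) came next, with p between 0.108 and 0.222 by limma. The days differ also in class and in time since the start, and day H joins mice of 3 start cohorts. In a fit with start cohort as a term 1 member, Stip1, passed, as did 2.70% of all probesets.

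**Figure D5:**
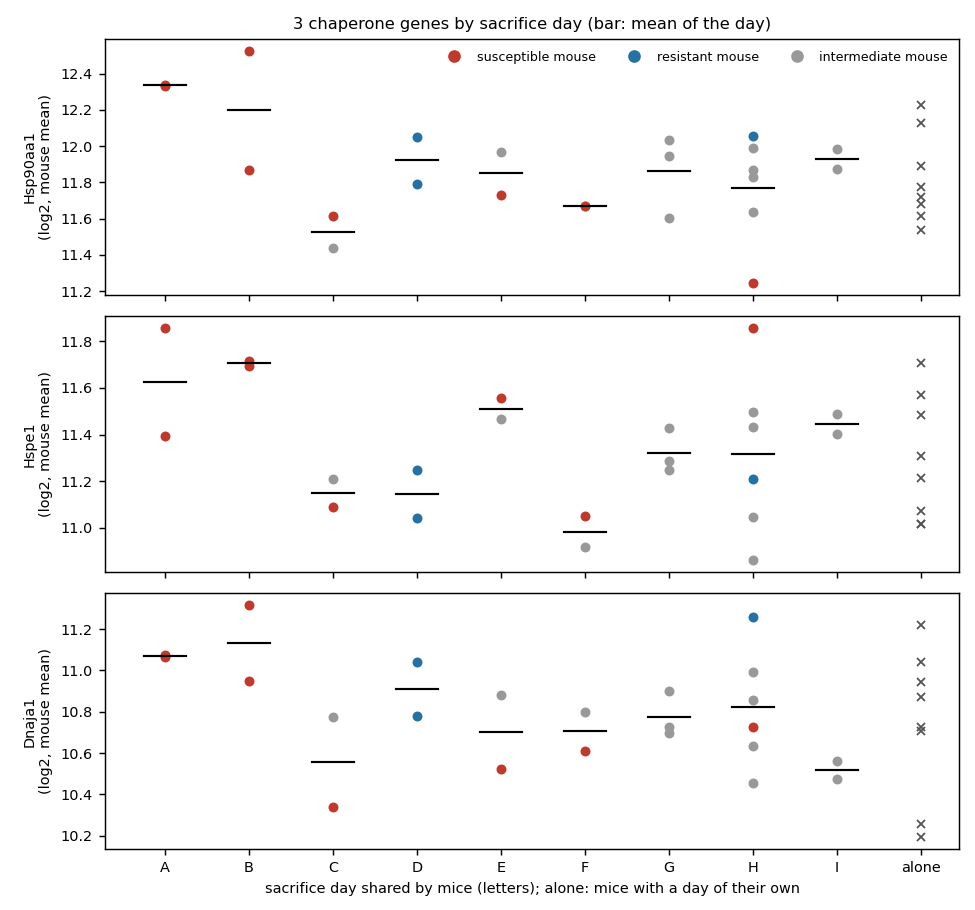
Mouse means (log2) of Hsp90aa1, Hspe1 and Dnaja1 by sacrifice day, with a bar at the mean of each of the 9 shared days, and crosses for mice with a day of their own. Points are colored by class. The 2 mice of day A agree within 0.0085 in Hsp90aa1, and the 6 of day H spread over 0.81.

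Papillomas of different mice killed on the same day differed slightly less than all other pairs of papillomas from different mice. Those other pairs include mice with no day of sacrifice given, so they are not all known to be from other days. The median ratio of these differences was 0.911 over members and 0.930 over all probesets. It rests on 36 pairs of papillomas from different mice on the same day. These pairs came from only 15 mice, since mice with a single profiled papilloma were left out. Each mouse entered several pairs, and day H gave more pairs than any other day, so the 36 pairs are not independent. On the same day 22 of 33 members (66.7%) were closer, against 62.4% of all probesets. The same ratio for papillomas of the same mouse against different mice was 0.597 over members. Dnajc7 differed by 0.07 on the same day, against 0.14 in the other pairs, and St13, whose probesets disagree, by 0.13, against 0.29. Members that were not closer on the same day include Hspa4l (0.44, against 0.36) and Hspa2 (0.70, against 0.61).

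To find genes associated with susceptibility, the study compared papillomas of susceptible and resistant mice. By limma over mouse means 0 of 33 members passed, and 0 also in a limma fit of the arrays with the mouse as a random block, against 0.0510% of all probesets, and 2 had an unadjusted p under 0.05, against 9.53% of all. Cryab had the largest difference: its lowest, median and highest levels were 7.84, 8.99 and 9.72 in the 12 susceptible mice, against 7.34, 8.41 and 9.28 in the 6 resistant mice. The groups overlapped over most of their range (difference 0.50, SE 0.30, adjusted p = 0.625). Hspa1a followed with 8.46 ± 0.62 in susceptible mice and 8.22 ± 0.41 in resistant mice (SD, difference 0.25, SE 0.27).

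In the other direction Hsph1 had 8.63 ± 0.48 in susceptible mice and 8.84 ± 0.54 in resistant mice (difference -0.22, SE 0.24, adjusted p = 0.848), with both ranges spanning the other's mean. Hspa8 had 12.96 ± 0.09 in susceptible and 13.11 ± 0.24 in resistant mice (difference -0.15, SE 0.09, adjusted p = 0.611). The smallest p belonged to Dnaja2 (0.16, SE 0.07, adjusted p = 0.446), with lowest, median and highest levels of 11.77, 11.91 and 12.01 in susceptible mice, against 11.49, 11.76 and 11.88 in resistant mice. In 4 cages 1 susceptible and 1 resistant mouse lived together, and Dnaja2 had 11.97, 11.77, 11.85 and 11.96 in their susceptible mice, against 11.88, 11.68, 11.70 and 11.82 in their cage mates. It was 1 of 2 members higher in the susceptible mouse of all 4 cages, as were 1727 of the 21561 probesets. With cage as a block 0 of 33 members passed by limma, against 0.0232% of all probesets, with a difference of 1.12 for Cryab (SE 0.23, adjusted p = 0.381). In that fit 2 members had an unadjusted p under 0.05, against 6.53% of all probesets. Beside these, 1 of 10 genes of the cornified barrier passed, Lce1m (difference 1.71, adjusted p = 0.0123), and 8 had an unadjusted p under 0.05. The mean barrier level lay between 10.0 and 11.5 in susceptible mice and between 8.20 and 10.0 in resistant mice, and its part in the chaperone values was not tested.

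Coat color, which marks the inherited pigment locus, gave 0 called members by limma with sex in the fit (0.0742% of all probesets), and 2 had an unadjusted p under 0.05, against 7.88% of all. Both were stress-inducible HSP70 genes, near-identical copies whose values are uncertain. Hspa1a had 7.29, 8.39 and 9.27 as lowest, median and highest levels in the 17 agouti mice, against 7.63, 8.75 and 9.45 in the 20 white mice, with wide overlap (difference -0.38, SE 0.16, adjusted p = 0.592). Hspa1b had 12.13 ± 0.36 in agouti and 12.38 ± 0.31 in white mice (difference -0.25, adjusted p = 0.594). Hspe1 had 11.47 ± 0.27 in agouti and 11.29 ± 0.29 in white mice (difference 0.18, adjusted p = 0.635), and St13 9.69 ± 0.24 in agouti and 9.57 ± 0.28 in white mice (difference 0.12, adjusted p = 0.75).

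By labelled sex 0 members passed (0.0649% of all probesets), while 7 had an unadjusted p under 0.05 by limma, against 15.9% of all. Dnaja1 had 10.13, 10.88 and 11.32 as lowest, median and highest levels in the 21 female mice, against 10.19, 10.59 and 10.90 in the 16 male mice (difference 0.29, SE 0.08, adjusted p = 0.157). Hsph1 had 8.03, 8.85 and 9.62 in female mice, against 6.60, 8.37 and 9.04 in male mice (difference 0.55, SE 0.18, adjusted p = 0.19). The ranges of both genes overlapped. Hsp90aa1 was 0.23 higher in females (adjusted p = 0.215) and Dnajc7 0.13 lower (difference -0.13, adjusted p = 0.235). Of 8 muscle genes 5 also had an unadjusted p under 0.05 (median difference 0.82), with mean levels between 4.64 and 9.44 in female mice and between 4.57 and 8.02 in male mice. The part of muscle in these values was not tested, and 6 mice went against their sex label.

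Time to sacrifice gave 0 called members over 31 mice by limma (0% of all probesets), and 1 with an unadjusted p under 0.05, against 5.51% of all. This was Hsp90aa1, which changed by -0.30 per 100 days (SE 0.08, p = 0.00105 by limma, adjusted p = 0.902), with 12.09 ± 0.29 in the 8 mice sacrificed at 179 to 228 days and 11.77 ± 0.24 in the 10 mice sacrificed at 305 to 388 days. Hspa2 had a slope of -0.30 (SE 0.17), Cryab one of 0.42 (SE 0.23) and Hspb8 one of 0.15 (SE 0.10), all with an adjusted p of 0.915 or more.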

How the data were processed

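The RNA of 68 papillomas was hybridized to Affymetrix mouse expression arrays, 1 per tumor. The authors deposited log2 values per probeset made by RMA, per the submitters' processing notes; RMA corrects background, normalizes arrays to a common distribution and summarizes probes, so values are relative to the other arrays and changes near the floor are compressed. Its version is not given in the sources used here. Symbols came from the platform annotation, and promoters and chromosomes from RefSeq (GRCm38.p6).

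Of 45101 probesets, 34945 carried 1 symbol, 932 several and 9160 none. A probeset with 1 symbol was tested where it exceeded the median of the array in 11 or more of the 68, the number of resistant arrays, which left 21561 (12596 genes). Log2 values were averaged per mouse. Intraclass correlations were tested by F, correlations by 100000 permutations, and class, coat with sex, days and sacrifice day by limma 3.58.1 in R 4.3.3, all with Benjamini-Hochberg adjustment over tested probesets and a threshold of 0.05. Python 3.11.15, numpy 2.4.6, scipy 1.17.1 and pandas 2.3.3 were used, and scripts were tested on simulated data. Labels do not say whether the 2 papillomas of a mouse were processed together. The number of mice limits the precision.

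The members, the other gene lists and the tests were chosen with earlier results of these data known. Every member is given with its level. Full statistics are given for the 4 members of highest and the 4 of lowest intraclass correlation, the 3 of highest and 2 of lowest r with each of the 5 genes, the 5 of smallest p by sacrifice day, and the 2 of largest difference in each direction by class, coat and days. Up to 2 genes of other lists are named. Other members were chosen after their values were seen. Alternatives covered the filter, Spearman's rho, a second probeset, arrays centred on their medians, 1 papilloma per mouse, start cohort, the control ratios, doubtful sex labels and leaving out each mouse. Added after the data were seen were those without mouse 36, without the 4 mice that stood apart, within shared days, within each class, within mice and with cage as a block. Skin, carcinomas and genotypes were not analysed here.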

Additional observations from a re-analysis of the deposited data

Results flagged for a closer look

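In groups of 4 to 10 mice, 66 sets of member values were checked for a single mouse far from the others (the 6 resistant mice and the 6 mice of sacrifice day H), and 7 stood out, where chance gives about 1 in 20, or 3.3. In the resistant mice Dnajb1 was 9.53 in mouse 37, below the other 5 mice at 10.17 to 10.31, and Ahsa1 was 9.86 in mouse 10, above the others at 9.39 to 9.53. On sacrifice day H the remaining 5 values all belonged to mouse 36, which was sacrificed latest, at 388 days, and gave 1 papilloma. There Hspa1a was 7.29 (others 8.50 to 9.13), Hspa9 9.46 (others 10.41 to 10.79), Dnajb1 9.77 (others 10.18 to 10.43), Stip1 7.41 (others 8.73 to 8.96) and Chordc1 9.51 (others 9.81 to 9.96). The same mouse was low in mitosis genes and in mitochondrial chaperones, and the part of its cell content in these values was not tested.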

How the results depend on the processing

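Members past the threshold for likeness within a mouse numbered 5 of 33 in the mice with a shared sacrifice day (median ICC 0.426; 21.6% of all probesets), 3 with day means removed (0.400; 16.4%), 5 in susceptible (14.2%) and 0 in resistant mice (0.00928%), against 31 (71.0%). In the counts of positive correlations that follow, the share of all probesets stands in brackets. With Hsph1, 4 (3.20%) became 0 within mice (0.0928%). With Hspa5, 5 (2.75%) became 3 without the filter (1.32%), 3 with start cohort means removed (3.01%), 1 without the 4 mice that stood apart (0.223%) and 1 within mice (3.07%). With Hspd1, 13 (15.9%) became 6 without mouse 36 (8.18%) and 7 without the 4 (5.52%). With Cct2, 14 (16.0%) became 8 with the first papilloma only (12.5%), 8 without mouse 36 (6.74%), 0 without the 4 (0.325%) and 9 within mice (6.18%). With Hspb1, 9 (14.5%) became 5 without mice of doubtful sex label (4.46%), 4 with cohort means removed (10.5%), 3 without the 4 (6.45%) and 0 within mice (0.663%). With start cohort as a term 1 member differed by sacrifice day, against 0. Leaving out each mouse in turn gave 0 to 0 members by class and by sacrifice day. The main fits called only 0.0510% of all probesets by class and 0% by sacrifice day, so this count says little about the members. Directions changed within mice for St13 with Hsph1 (r = 0.24), Hsp90b1 with Hspa5 (-0.0648), Hspe1 with Hspa5 (0.0186), Dnajb9 with Hspd1 (0.0411) and Dnajb9 with Cct2 (0.13), for Hsph1 by class with the control ratios removed (0.0319), and for Hspe1 by coat with cage as a block (-0.00791), where 0 members passed by class and by coat, as without it. The cause was not tested. Of the planned repeats of counts and medians over the members, 126 stayed within 1.5 times or 1 SD and 6 did not. By replicate number, no paired analysis was possible because these numbers only count papillomas within a class in accession order and each mouse belongs to 1 class. Signal over background is weak in probesets near the median of an array, such as Hspa2.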

Other observations

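Outside the list, the genes closest to the chaperones over 37 mouse means were of varied function. Hsph1 went with Memo1 (r = 0.83, permutation p = 1e-05, adjusted p = 0.00111) and Eps15l1 (r = 0.82), Hspa5 with the sugar nucleotide enzyme Gmppb (r = 0.79, permutation p = 2e-05, adjusted p = 0.00484), and Hspd1 with the translation termination factor Gspt1 and the tRNA synthetase subunit Farsb (both r = 0.86, permutation p = 1e-05, adjusted p = 0.000404). Cct2 went with Tmtc3, a transmembrane protein (r = 0.88, permutation p = 1e-05, adjusted p = 0.000623), with Slc25a3, the mitochondrial phosphate carrier (r = 0.86), and with Atp5b, a subunit of ATP synthase (r = 0.85), although without the 4 mice that stood apart 0.325% of all probesets passed with Cct2. Hspb1 went with Ablim1, an actin-binding protein (r = 0.84). The ER lectin chaperone Calr had an intraclass correlation of 0.869, above all 33 members, and the endothelial receptor Kdr one of 0.866.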
